A study of Mus musculus with 36 samples.

Results

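Red tomato powder was compared with control diet across the liver transcriptome of 24 mice, which were 12 mice per diet out of the 36 libraries of the series. The libraries were chosen by the diet named in each sample title, with no use of measured values. All animals were male C57BL/6 mice that were randomly assigned to a diet at 4 weeks of age and were 10 weeks old when liver was sampled, after 6 weeks of feeding. The control group ate AIN93G, a purified rodent diet without tomato, and the red group ate this diet with 10% by weight of red tomato powder. Per the series' design text the diets were matched for macronutrients. The remaining 12 mice ate 10% tangerine tomato powder and entered the model to share its estimate of the spread. The labels state 11 to 12 mice per group, and each of the 12 titles per diet carries its own number, read here as the mouse number. Each library came from a piece of whole liver of 1 mouse, so fewer cells of a type and less RNA per cell could not be told apart.

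Tomato powder carries carotenoids, chiefly lycopene in red fruit, together with polyphenols, steroidal glycoalkaloids, fibre and sugars. The liver takes up carotenoids from lipoproteins and can cleave them with the oxygenases BCO1 and BCO2. It also clears plant compounds through cytochrome P450 enzymes of phase I and through the conjugating enzymes and exporters of phases II and III. The nuclear receptors CAR and PXR and the transcription factor NRF2 switch on many of these genes, whereas SREBP1 and SREBP2 drive synthesis of fatty acids and of sterols. Many liver genes also follow the time of day and the timing of meals through the circadian clock.

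Total counts per library ranged from 21290169 to 30607817 on control and from 22889519 to 33810573 on red diet. All 9 hepatocyte markers with a match in the count table were tested, and their summed counts ranged from 2821496 to 4102830 in control and from 2792755 to 4252845 in red livers, so the labelled tissue held its defining transcripts. Markers of pancreatic acinar cells summed to at most 2 counts in any control and 13 in any red library. The red library of mouse 186 stood apart from the other 11. Its 12 T cell markers summed to 11694 counts, against 125 to 229 in control and 128 to 308 in the other red libraries. Its 6 adipocyte markers below the count filter summed to 345 counts, against at most 6 in control and at most 8 in the other red libraries. Results that rest on this library are given with and without it.

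Expression on red diet differed from control in 21 of 14068 tested genes (0.149%) at an adjusted p under 0.05, of which 7 were higher (0.0498%) and 14 lower (0.0995%). The largest differences among abundant transcripts were a rise of Osgin1 and Cyp2c29, which belong to the response to oxidants and foreign compounds, and a fall of Ntrk2, a neurotrophin receptor. Liver enzymes of urate breakdown (Uox), the urea cycle (Arg1) and methyl transfer (Nnmt, As3mt) were among the genes that fell. The median size of the 21 differences was 0.50 on the log2 scale, with a range from 0.26 to 1.52. An unadjusted p under 0.05 was reached by 1872 genes (13.3%), of which 939 were higher (6.67%) and 933 lower (6.63%). These shares are the background for the list counts with diet alone given below. The median log2 fold change over all tested genes was -0.0047.

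**Figure D1:**
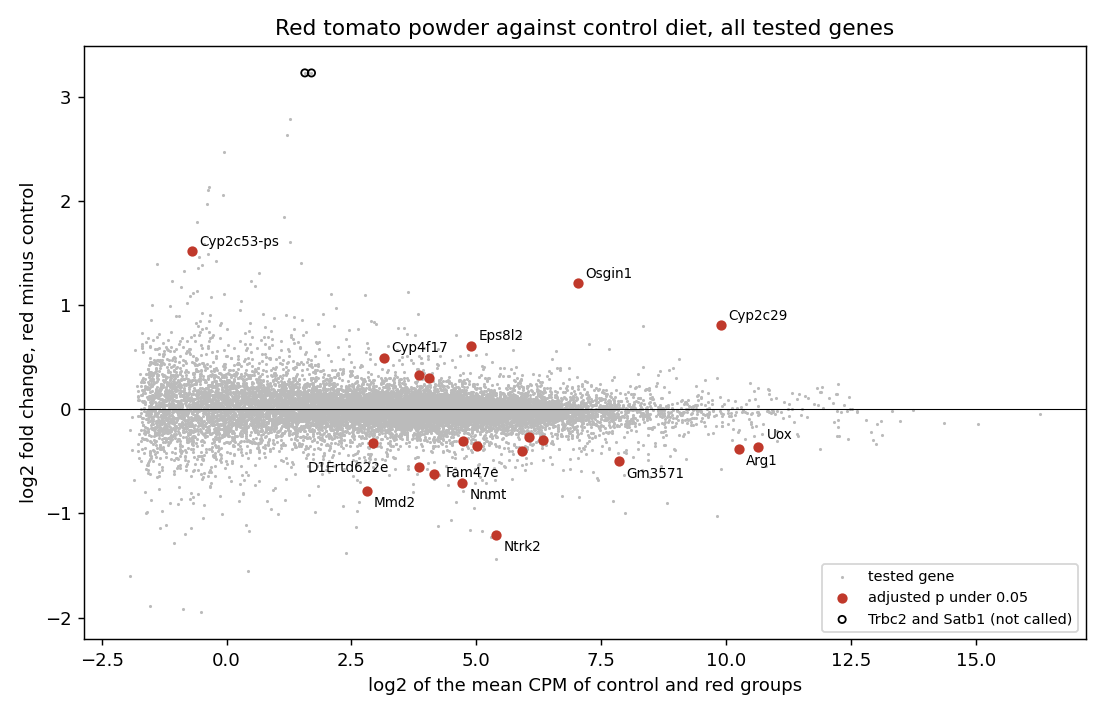
Log2 fold change of red against control (vertical axis) against the log2 of the mean abundance in scaled counts, CPM (horizontal axis) for the 14068 tested genes. The 21 genes with an adjusted p under 0.05 are filled red, 7 above and 14 below 0, and the open circles are the T cell transcripts Trbc2 and Satb1, which had larger fold changes (3.23 each) but did not pass.

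Cyp2c29, a cytochrome P450 of the Cyp2c cluster that is induced through CAR, had the smallest p-value. Its identifier ENSMUSG00000003053 lies at chr19:39269405-39330713, plus strand (GRCm38). Its abundance, in CPM (counts per library divided by its TMM-scaled total and set to a common depth), ranged from 563 to 986 CPM with a median of 687 in control livers and from 919 to 1581 CPM with a median of 1194 in red livers. All 12 red livers exceeded the control median and 10 exceeded every control liver. The mean rose from 696 ± 116 to 1218 ± 217 CPM (SD, n = 12 each), a log2 fold change of 0.81 (edgeR adjusted p 2.17e-06, SE 0.0928). The pseudogene Cyp2c53-ps (chr19:39229254-39274985, plus strand) shares 5581 bases of its span with Cyp2c29 on the same strand. It ranged from 0.157 to 0.505 CPM with a median of 0.326 in control livers and from 0.302 to 1.66 CPM with a median of 0.998 in red livers, and 10 red livers exceeded every control. Its log2 fold change was 1.52 (edgeR adjusted p 0.00367, SE 0.253). The sources used here do not say how reads shared by neighbouring or similar Cyp2c genes were counted, so the pseudogene's value is uncertain to that extent.

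Osgin1 (chr8:119434124-119446256, plus strand) encodes an oxidative stress induced growth inhibitor and is a known NRF2 target. Its abundance ranged from 46.3 to 161 CPM with a median of 78.2 in control livers and from 44.3 to 316 CPM with a median of 187 in red livers. The red values were widely spread, with 7 red livers above every control and 1 below every control. The log2 fold change was 1.21 (edgeR adjusted p 0.0167, SE 0.24), with 11 of 12 red livers above the control median. Cyp4f17, a P450 of the Cyp4f subfamily known to hydroxylate fatty acids and eicosanoids, ranged from 4.93 to 9.64 CPM with a median of 6.91 in control livers and from 7.93 to 13.4 CPM with a median of 10.4 in red livers. All 12 red livers lay above the control median and 9 above every control, with a log2 fold change of 0.50 (edgeR adjusted p 0.0196, SE 0.101).

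The other genes that rose code for proteins of the cell cortex and cytoskeleton or of cell contact. Eps8l2, an EPS8-like regulator of actin, ranged from 14.1 to 30.1 CPM with a median of 23.1 in control livers and from 26.9 to 45.1 CPM with a median of 37.4 in red livers, and 9 red livers exceeded every control. Its log2 fold change was 0.61 (edgeR adjusted p 0.00609, SE 0.108). Efnb1 encodes ephrin B1, a membrane ligand of Eph receptors, and rose by 25.9%, from 12.7 ± 1.6 to 16 ± 1.8 CPM (SD, n = 12 each; log2 fold change 0.33, edgeR adjusted p 0.0253). Eml3, a microtubule-associated protein, rose by 23.3%, from 15 ± 1.81 to 18.4 ± 2.02 CPM (SD, n = 12 each; log2 fold change 0.30, edgeR adjusted p 0.0397). For both, all 12 red livers lay above the control median, as was so for 241 of all tested genes (1.71%), and 6 and 4 of them, respectively, lay above every control. Eml3 overlaps the antisense gene Gm10353 on the opposite strand, and the counting strand is not given in the sources used here.

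**Figure D2:**
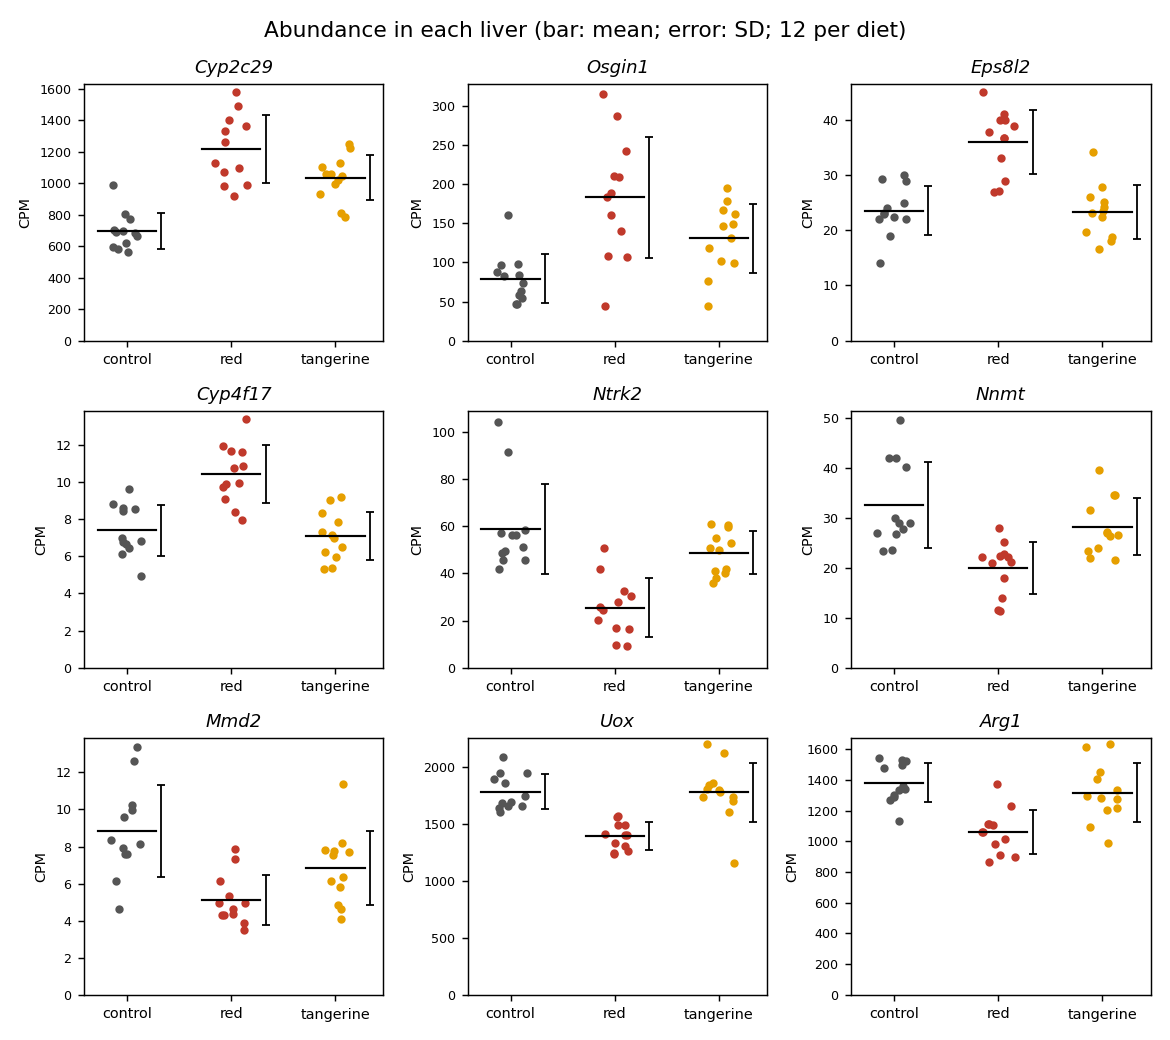
Abundance in CPM (vertical axes, from 0) of 9 of the 21 genes in each liver on control, red and tangerine diet, with the mean and SD of 12 mice per diet beside the points. Uox separates control (1607 CPM and above) from red livers (1573 CPM and below), whereas Osgin1 overlaps between the diets.

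Uox, urate oxidase, which breaks down urate in peroxisomes, was the only tested gene whose control and red ranges did not overlap (1 of 14068, 0.00711%). It ranged from 1607 to 2086 CPM with a median of 1716 in control livers and from 1232 to 1573 CPM with a median of 1404 in red livers. It fell by 22%, a log2 fold change of -0.36 (edgeR adjusted p 0.0156, SE 0.0685). Its span (chr3:146570426-146632305, plus strand) contains the whole of Dnase2b on the opposite strand. Arg1, arginase 1, which releases urea from arginine in the last step of the urea cycle, ranged from 1133 to 1544 CPM with a median of 1354 in control livers and from 864 to 1374 CPM with a median of 1061 in red livers. 10 of 12 red livers lay below every control, and the log2 fold change was -0.38 (edgeR adjusted p 0.0167, SE 0.0753).

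Ntrk2, which encodes the receptor TrkB for brain-derived neurotrophic factor (chr13:58806569-59133970, plus strand), had the largest decrease among the 21 genes. It ranged from 42 to 104 CPM with a median of 53.6 in control livers and from 9.28 to 50.8 CPM with a median of 24.9 in red livers. 11 of 12 red livers lay below every control, and the remaining one lay inside the control range. The log2 fold change was -1.21 (edgeR adjusted p 0.00367, SE 0.203), a fall by 56.7%. Mmd2, a member of the PAQR family of membrane proteins, ranged from 4.65 to 13.4 CPM with a median of 8.25 in control livers and from 3.51 to 7.85 CPM with a median of 4.81 in red livers. The ranges overlapped in part, with 6 red livers below every control, and the log2 fold change was -0.79 (edgeR adjusted p 0.0167, SE 0.156).

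A pair of the genes that fell encode methyltransferases that use S-adenosylmethionine. Nnmt, which methylates nicotinamide, ranged from 23.3 to 49.6 CPM with a median of 29.1 in control livers and from 11.5 to 28.1 CPM with a median of 21.7 in red livers, and 10 red livers lay below every control. Its log2 fold change was -0.70 (edgeR adjusted p 0.0167, SE 0.14). As3mt, which methylates arsenic, ranged from 29.3 to 45.8 CPM with a median of 35.7 in control livers and from 21.5 to 34.5 CPM with a median of 28.4 in red livers, with a log2 fold change of -0.35 (edgeR adjusted p 0.0271, SE 0.0747). As3mt lies 4075 bases downstream of Borcs7 on chromosome 19, on the same strand. Borcs7, a subunit of the BORC complex that positions lysosomes, had a log2 fold change of -0.32 (edgeR adjusted p 0.0353, SE 0.0701) and ranged from 6.71 to 10.4 CPM with a median of 8.14 in control livers and from 5.68 to 8.04 CPM with a median of 6.76 in red livers. No red liver exceeded the control median for any of these 3 genes, as was so for 247 of all tested genes (1.76%).

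The remaining genes that fell each had 0 of 12 red livers above the control median. D1Ertd622e fell by 31.9% (log2 fold change -0.55, edgeR adjusted p 0.0139) and Fam47e by 34.8% (log2 fold change -0.62, edgeR adjusted p 0.0271). Atp1b1, the beta 1 subunit of the sodium pump, fell from 68.5 ± 12.3 to 52 ± 4.66 CPM (SD, n = 12 each; log2 fold change -0.40, edgeR adjusted p 0.0304). Dhrs7, a short-chain dehydrogenase/reductase, fell from 29.6 ± 2.97 to 24 ± 2.68 CPM (SD, n = 12 each; log2 fold change -0.30, edgeR adjusted p 0.0167). Tmem50a, a small membrane protein, fell by 16.7% (log2 fold change -0.26, edgeR adjusted p 0.0271). Across the 21 genes, 18 had either no or every red liver above the control median, a pattern found in 488 of all tested genes (3.47%). The exceptions were Cyp2c53-ps, Osgin1 and Arg1. Without the low-count filter, which raised the number of tested genes to 27335, Tmem50a, Fam47e, Borcs7 and Eml3 no longer passed.

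The last pair that fell were Erg28, which acts in sterol synthesis, and Gm3571, a pseudogene copy of a sterol synthesis gene. Erg28, a scaffold protein of the complex that removes methyl groups from sterol precursors, ranged from 73.1 to 109 CPM with a median of 90.8 in control livers and from 60.6 to 83.1 CPM with a median of 71.7 in red livers, with a log2 fold change of -0.30 (edgeR adjusted p 0.0156, SE 0.0572). Gm3571 is annotated as a processed pseudogene of chr10:93778660-93779719, plus strand (GRCm38) and is a near copy of the coding sequence of Fdps, farnesyl diphosphate synthase of the mevalonate pathway. Aligned to the 1059 bases of the Fdps coding sequence, it had 10 mismatches and 2 gap columns. The stretch of 150 bases without gaps that holds the most differences is shown for both, because it shows how little sequence could tell their reads apart; capitals mark the 3 mismatches, and positions 102 to 251 count from the first base of the Fdps start codon.
Fdps: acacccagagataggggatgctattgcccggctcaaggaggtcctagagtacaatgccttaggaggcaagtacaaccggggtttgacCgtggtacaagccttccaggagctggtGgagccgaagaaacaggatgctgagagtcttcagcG
Gm3571: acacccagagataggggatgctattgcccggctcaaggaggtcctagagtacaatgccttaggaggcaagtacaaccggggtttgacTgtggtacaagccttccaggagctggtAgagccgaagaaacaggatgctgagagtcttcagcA
Gm3571 ranged from 215 to 351 CPM with a median of 272 in control livers and from 146 to 247 CPM with a median of 189 in red livers, and its log2 fold change was -0.50 (edgeR adjusted p 0.027, SE 0.105). A further copy, Gm5873, had means of 51.7 ± 11 CPM on control and 36.5 ± 4.31 CPM on red (SD, n = 12 each). Fdps itself had 10.7 ± 3.4 and 8.51 ± 1.38 CPM (SD, n = 12 each), with a log2 fold change of -0.33 (edgeR adjusted p 0.335, SE 0.15). Only 1.74% to 4.04% of the counts summed over Fdps and its copies lay on Fdps in the control and red libraries. When the family was summed as 1 gene, its abundance was 334 ± 61.2 CPM on control and 237 ± 33 CPM on red (SD, n = 12 each). That sum fell by 29.0% (log2 fold change -0.49, edgeR adjusted p 0.0304, SE 0.106) with 0 of 12 red livers above the control median. How reads shared by Fdps and its copies were assigned is not given in the sources used here, so the call on Gm3571 cannot be told apart from one on Fdps.

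Clock genes had higher or lower levels in red livers, and none of them passed after adjustment. Dbp, a clock output factor whose transcript peaks late in the light phase in mouse liver, ranged from 1.84 to 105 CPM with a median of 72.5 in control livers and from 3.64 to 57.6 CPM with a median of 15 in red livers. Arntl, which encodes the core clock activator BMAL1, ranged from 2.15 to 23 CPM with a median of 4.67 in control livers and from 6.16 to 29.3 CPM with a median of 17.7 in red livers. No red liver exceeded the control median of Dbp and all 12 exceeded that of Arntl, yet both ranges were wide within each diet and overlapped. The log2 fold changes were -1.44 (edgeR adjusted p 0.141, SE 0.454) and 1.13 (edgeR adjusted p 0.187, SE 0.391). Of 15 tested genes of the clock list, 5 were higher and 7 lower at an unadjusted p under 0.05. Tef, a relative of Dbp, had a log2 fold change of -0.83 (edgeR adjusted p 0.141, SE 0.264), and Per2, a clock repressor, of -0.57 (edgeR adjusted p 0.0927, SE 0.158). The time of sampling of each mouse is not given in the labels, and its part in these values was not tested.

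**Figure D3:**
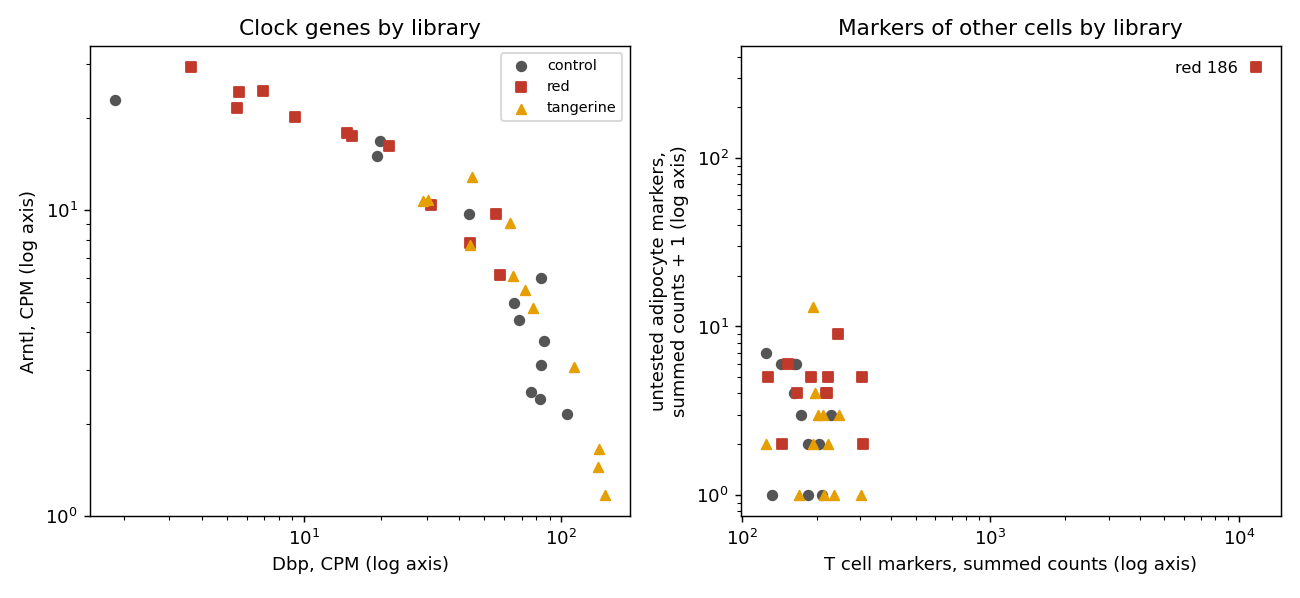
Left, abundance of Arntl against Dbp in each of the 36 livers (CPM, both axes logarithmic), where red livers sit toward low Dbp (median 15.0 CPM against 72.5 CPM on control). Right, summed counts of T cell markers against summed counts plus 1 of adipocyte markers below the count filter (both axes logarithmic), where red 186 lies alone at 11694 and 345 counts.

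To ask how the genes that differed by diet varied with the clock, a clock score was formed from the 15 tested clock genes. The score, the first principal component of their log2 CPM (64.9% of their variance, high with high Dbp), ranged from -1.85 to 1.15 with a median of 0.65 in control livers and from -1.75 to 0.35 with a median of -0.92 in red livers. Within diets, 1030 of 14068 genes (7.32%) had a slope on the score at an adjusted p under 0.05, among them 3 of the 21, namely Arg1, Cyp4f17 and Fam47e. With the score in the model, 4 genes passed for red against control (0.0284%), all of them among the 21, and 1492 had an unadjusted p under 0.05 (10.6%). Cyp2c29 (log2 fold change 0.85, edgeR adjusted p 2.41e-05), Cyp2c53-ps (1.5, 0.0448), Ntrk2 (-1.15, 0.0345) and Mmd2 (-0.91, 0.0345) passed, and the other 17 did not. The 21 genes kept 56.9% to 116% of their log2 fold change, with a median of 85.6%. Fam47e kept 56.9% and Cyp4f17 61.5%, whereas Nnmt kept 93.1% and Borcs7 99.2%. Osgin1 had a log2 fold change of 0.90 with the score (edgeR adjusted p 0.269, SE 0.276).

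**Figure D4:**
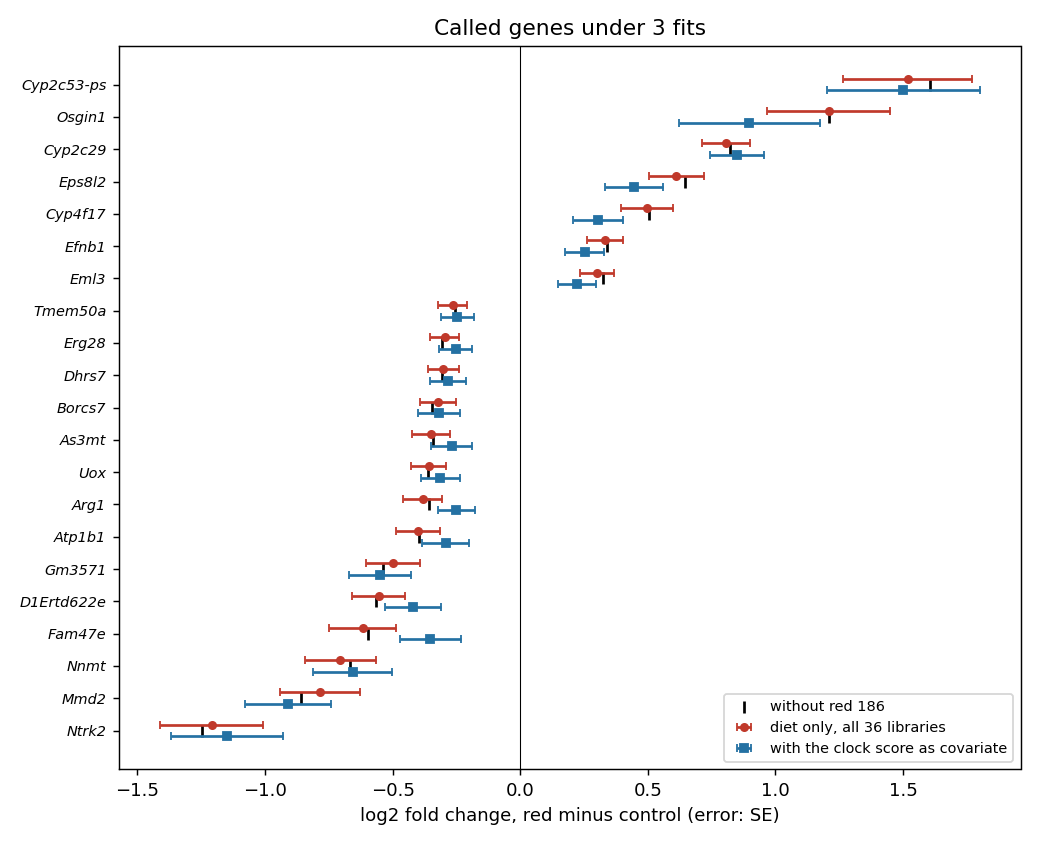
Log2 fold change of red against control for the 21 genes with diet alone (red circles with SE), with the clock score as covariate (blue squares with SE) and without red 186 (black ticks). All keep their sign, and the kept share with the clock score runs from 56.9% for Fam47e to 116% for Mmd2.

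Among genes of drug and toxin metabolism, single P450 genes had higher or lower values, and the median of the list was near 0. Of 51 listed P450 genes of families 1 to 3, 44 were tested. At an unadjusted p under 0.05, 7 were higher and 4 lower, with a median log2 fold change of -0.0013, and Cyp2c29 alone passed after adjustment. Cyp2c55, another inducible member of the Cyp2c cluster, ranged from 2.00 to 3.15 CPM with a median of 2.39 in control livers and from 2.16 to 5.26 CPM with a median of 3.39 in red livers (log2 fold change 0.55, edgeR adjusted p 0.0591, SE 0.132). The CAR and PXR targets Cyp2b10 (log2 fold change 1.39, unadjusted p 0.0185) and Cyp3a11 (0.49, unadjusted p 0.0408) had wide ranges, that of Cyp3a11 running from 156 to 1087 CPM in red livers alone. Cyp2a5, which oxidises coumarin and nicotine, ranged from 56.4 to 289.5 CPM with a median of 177 in control livers and from 54.7 to 177 CPM with a median of 82.6 in red livers (log2 fold change -0.84, edgeR adjusted p 0.131, SE 0.255). With the clock score, the log2 fold change of Cyp2a5 was -0.006 and that of its close relative Cyp2a4 was -0.16, against -0.93 without it. With the score in the model the list had 8 higher and 0 lower members at an unadjusted p under 0.05, where 5.33% and 5.27% of all tested genes were. Cyp1a2, a target of the aryl hydrocarbon receptor, ranged from 284 to 527 CPM with a median of 391 in control livers and from 295 to 529 CPM with a median of 424 in red livers, and its log2 fold change was 0.10 (edgeR adjusted p 0.677, SE 0.0951).

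Of 30 listed NRF2 targets, 27 were tested, and 7 were higher and 1 lower at an unadjusted p under 0.05, with a median log2 fold change of 0.0027. Over all tested genes 6.67% were higher and 6.63% lower at that threshold. Osgin1 alone passed after adjustment. The members with small p-values included both subunits of the enzyme that starts glutathione synthesis. Gclc, its catalytic subunit, ranged from 210.4 to 402 CPM with a median of 274 in control livers and from 283 to 501 CPM with a median of 359.6 in red livers (log2 fold change 0.40, edgeR adjusted p 0.0978, SE 0.113), and Gclm, the modifier subunit, had a log2 fold change of 0.27 (edgeR adjusted p 0.132, SE 0.0829). All 12 red livers exceeded the control median for Gclc. Aldehyde oxidase, Aox1, ranged from 40.3 to 62.9 CPM with a median of 55.7 in control livers and from 56 to 79.4 CPM with a median of 65.6 in red livers, also with 12 of 12 red livers above the control median (log2 fold change 0.33, edgeR adjusted p 0.0728, SE 0.0861). The exporter Abcc3 had a log2 fold change of 0.49 (edgeR adjusted p 0.118, SE 0.143). Nqo1, the quinone reductase most often used to read NRF2 activity, ranged from 2.09 to 4.32 CPM with a median of 3.37 in control livers and from 2.21 to 4.83 CPM with a median of 2.81 in red livers and did not pass (log2 fold change -0.021, edgeR adjusted p 0.973). The list had 7 higher and 3 lower members without red 186 and 5 higher and 3 lower with the clock score, where Gclc had a log2 fold change of 0.21 (unadjusted p 0.077).

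The promoters of Osgin1 and Aox1 are shown because these NRF2-list genes had the smallest p-values of their list and share a short motif. Each is the 250 bases before an annotated start in RefSeq (GRCm38.p6), and capitals mark a match to the AP-1 site TGANTCA on either strand, a motif that can lie within the longer NRF2 site. The Osgin1 stretch is chr8:119436897-119437146 on the plus strand and the Aox1 stretch is chr1:58029719-58029968 on the plus strand.
Osgin1: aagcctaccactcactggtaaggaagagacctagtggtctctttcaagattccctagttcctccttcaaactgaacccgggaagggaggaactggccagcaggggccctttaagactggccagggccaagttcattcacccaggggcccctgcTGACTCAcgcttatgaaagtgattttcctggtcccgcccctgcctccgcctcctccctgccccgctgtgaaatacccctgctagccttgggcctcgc
Aox1: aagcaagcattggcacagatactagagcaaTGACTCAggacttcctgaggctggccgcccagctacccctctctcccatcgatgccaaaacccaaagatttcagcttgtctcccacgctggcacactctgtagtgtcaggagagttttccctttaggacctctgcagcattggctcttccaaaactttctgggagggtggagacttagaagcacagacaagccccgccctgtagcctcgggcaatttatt
This motif was found in 5 of 33 promoters of the NRF2 list (15.2%). It was found in 6.75% of all 32851 promoters in the table and in 4.64% of those of tested genes. The core of the antioxidant response element, TGACNNNGC, occurred in 9 of those 33 promoters (27.3%). This core occurred in 10.2% of all promoters and in 11.4% of those of tested genes. It did not occur in the Osgin1 or the Aox1 stretch shown. Of the 21 genes, 14 had a promoter in the table. Among their promoters, TGACNNNGC occurred in that of Fam47e, and TGANTCA in those of Osgin1 and As3mt. The E-box CACGTG occurred in 0 of their 16 promoters and in 30% of the promoters of clock genes. It occurred in 6.02% of all promoters and in 8.07% of those of tested genes. A match describes these letters and not bound sites.

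No listed glutathione S-transferase, UDP-glucuronosyltransferase or sulfotransferase passed after adjustment. Of 23 listed glutathione S-transferases 20 were tested, and 1 was higher at an unadjusted p under 0.05, Gsta1 (log2 fold change 0.66, edgeR adjusted p 0.283, SE 0.27). Gsta1 was thus 5% of the tested members, below the 13.3% of all tested genes at that threshold. Without red 186 its log2 fold change was 0.52 (unadjusted p 0.0571) and with the clock score 0.35 (unadjusted p 0.236). Of 32 listed UDP-glucuronosyltransferases and sulfotransferases 15 were tested, with 0 higher and 4 lower (3 without red 186, 1 with the clock score). The lower members were Sult1d1 (log2 fold change -0.53, edgeR adjusted p 0.101, SE 0.15), Sult1c2, Sult1b1 and Ugt2a3, the last 3 with log2 fold changes from -0.20 to -0.16. Sult1d1 is a sulfotransferase of catecholamines and other phenols and ranged from 67.7 to 163 CPM with a median of 110.1 in control livers and from 58 to 109.9 CPM with a median of 67.1 in red livers, with 0 of 12 red livers above the control median.

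No gene of carotenoid uptake, cleavage or retinoid metabolism passed after adjustment. Of 30 listed genes 25 were tested, and 3 were higher and 1 lower at an unadjusted p under 0.05 (4 and 2 without red 186), with a median log2 fold change of -0.0033. With all libraries this was 16% of the tested members, near the 13.3% of all tested genes. Bco1, which cleaves beta-carotene to retinal, ranged from 11.7 to 18.5 CPM with a median of 14.3 in control livers and from 11.6 to 17.8 CPM with a median of 14.3 in red livers. Bco2, which cleaves carotenoids such as lycopene off centre, ranged from 13.5 to 17.9 CPM with a median of 15.8 in control livers and from 12.1 to 20.2 CPM with a median of 16.3 in red livers. Their log2 fold changes were -0.017 (edgeR adjusted p 0.958, SE 0.0871) and 0.043 (edgeR adjusted p 0.836, SE 0.069), and the sign of Bco1 turned without red 186. Scarb1, a lipoprotein receptor that also takes up carotenoids, had a log2 fold change of 0.12 (edgeR adjusted p 0.516, SE 0.0754). The higher members were the retinoid X receptor Rxrg (log2 fold change 0.29, unadjusted p 0.0219), the retinal reductase Dhrs3 (0.22, unadjusted p 0.0247) and the RBP4 receptor Stra6l (0.15, unadjusted p 0.0396), none of which passed after adjustment. The list had 0 higher and 1 lower members with the clock score, and these log2 fold changes were then 0.040, 0.082 and -0.023.

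Sterol synthesis transcripts were lower in red livers almost throughout the list. Of 26 listed genes of cholesterol synthesis and SREBP2 targets 25 were tested, and 24 of these had a negative log2 fold change, against 7245 of 14068 over all tested genes. At an unadjusted p under 0.05, 17 were lower and 0 higher, and the median log2 fold change was -0.26; none passed after adjustment. Idi1, isopentenyl diphosphate isomerase, ranged from 164 to 538 CPM with a median of 278 in control livers and from 113 to 289 CPM with a median of 186 in red livers (log2 fold change -0.63, edgeR adjusted p 0.0735, SE 0.165). Dhcr7, which reduces the last precursor of cholesterol, ranged from 149 to 229.9 CPM with a median of 181 in control livers and from 126 to 178 CPM with a median of 155 in red livers, with 0 of 12 red livers above the control median (log2 fold change -0.26, edgeR adjusted p 0.122, SE 0.078). Acat2, acetyl-CoA acetyltransferase at the head of the pathway, had a log2 fold change of -0.29 (edgeR adjusted p 0.0754, SE 0.0777). With the clock score 14 members were lower at an unadjusted p under 0.05 and the median was -0.30. Erg28 and Gm3571, both past the threshold, are not members of this list.

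Fatty acid and triglyceride synthesis showed the same direction with more spread. Of 25 listed genes 24 were tested, with 10 lower and 1 higher at an unadjusted p under 0.05 and a median log2 fold change of -0.35. Thrsp, the lipogenic regulator Spot14, ranged from 597 to 2036 CPM with a median of 1150.3 in control livers and from 241 to 887 CPM with a median of 704 in red livers, and no red liver exceeded the control median (log2 fold change -1.02, edgeR adjusted p 0.0689, SE 0.26). Dgat2, which makes triglyceride from diacylglycerol, had a log2 fold change of -0.25 (edgeR adjusted p 0.122, SE 0.076) and Srebf1, which encodes SREBP1, of -0.32 (edgeR adjusted p 0.299, SE 0.137). Fasn, fatty acid synthase, ranged from 1049 to 3995 CPM with a median of 1768 in control livers and from 571 to 2715 CPM with a median of 1450.4 in red livers (log2 fold change -0.54, edgeR adjusted p 0.416, SE 0.285). Elovl3, a fatty acid elongase, was the member with a higher value (log2 fold change 0.80, unadjusted p 0.022). Without red 186 the list had 13 lower and 1 higher members. In the fit with the clock score it had 10 lower and 0 higher members and a median of -0.43. The log2 fold changes were then -0.085 for Dgat2, -0.26 for Srebf1, -0.84 for Thrsp and -0.80 for Fasn.

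Genes of fatty acid oxidation and PPARA targets tended the other way. Of 35 listed genes 34 were tested, 28 had a positive log2 fold change, and 6 were higher and 0 lower at an unadjusted p under 0.05, with a median of 0.15. The lipid droplet protein Plin2 ranged from 284 to 528 CPM with a median of 335 in control livers and from 334 to 652 CPM with a median of 444 in red livers (log2 fold change 0.37, edgeR adjusted p 0.163, SE 0.123). Pdk4, a kinase that holds back glucose oxidation, ranged from 2.57 to 25.8 CPM with a median of 8.85 in control livers and from 6.02 to 46.6 CPM with a median of 16.9 in red livers (log2 fold change 0.92, edgeR adjusted p 0.196, SE 0.325); with the clock score its log2 fold change was 0.056. The hormone gene Fgf21 had a log2 fold change of 0.77 (edgeR adjusted p 0.238, SE 0.294). None of the 34 passed after adjustment. Without red 186 the list had 7 higher and 0 lower members at an unadjusted p under 0.05 and a median of 0.17. The fit with the clock score gave 8 higher and 0 lower members and a median of 0.21.

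In the list of bile acid synthesis, sterol export and LXR targets, 27 of 29 genes were tested, with 3 higher and 4 lower at an unadjusted p under 0.05. Abcg5 and Abcg8, the paired half-transporters that export cholesterol into bile, had log2 fold changes of -0.30 (edgeR adjusted p 0.0729, SE 0.0788) and -0.25 (edgeR adjusted p 0.178, SE 0.0864), each with 0 of 12 red livers above the control median. Abcg1, another LXR target, had a log2 fold change of 0.37 (edgeR adjusted p 0.194, SE 0.131) in the opposite direction. Cyp7a1, the rate-limiting enzyme of bile acid synthesis, ranged from 27.4 to 213 CPM with a median of 69.8 in control livers and from 6.84 to 124 CPM with a median of 76 in red livers and did not pass (log2 fold change -0.34, edgeR adjusted p 0.71, SE 0.348). With the clock score, Abcg5 had a log2 fold change of -0.15 and Abcg8 of -0.058, and the list had 2 higher and 0 lower members at an unadjusted p under 0.05.

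Of 25 tested genes of glucose, glycogen and fructose metabolism, 11 were lower and 0 higher at an unadjusted p under 0.05, with a median log2 fold change of -0.22. Slc37a4, which carries glucose 6-phosphate into the endoplasmic reticulum, ranged from 140.4 to 281 CPM with a median of 198 in control livers and from 122 to 191 CPM with a median of 152 in red livers, with 0 of 12 red livers above the control median (log2 fold change -0.42, edgeR adjusted p 0.0588, SE 0.0964). In the fit with the clock score, 8 genes of the list were lower and 0 higher. The glycogen branching enzyme Gbe1 had a log2 fold change of -0.23 (edgeR adjusted p 0.153, SE 0.0741). Glycogen synthase Gys2 had -0.39 (edgeR adjusted p 0.164, SE 0.13), and with the clock score 0.0021. The fructose transporter Slc2a5 had a log2 fold change of -0.37 (edgeR adjusted p 0.178, SE 0.125), and with the clock score -0.057.

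Arg1 was one of the listed periportal markers, which include genes of the urea cycle. Of 16 tested periportal markers, 6 were lower and 1 higher at an unadjusted p under 0.05 (6 and 2 without red 186), with a median log2 fold change of -0.13, and Arg1 alone passed after adjustment. Cps1, which starts the urea cycle, ranged from 2859 to 5986 CPM with a median of 4222 in control livers and from 2558 to 4158 CPM with a median of 3173 in red livers, with 0 of 12 red livers above the control median (log2 fold change -0.38, edgeR adjusted p 0.101, SE 0.108). Asl, argininosuccinate lyase, had a log2 fold change of -0.35 (edgeR adjusted p 0.0975, SE 0.0979) and Ass1, argininosuccinate synthase, of -0.34 (edgeR adjusted p 0.181, SE 0.119). When the clock score was in the model, 0 members were higher and 3 lower, and the log2 fold changes were -0.24 for Cps1 and -0.20 for Asl. Gldc of the glycine cleavage system was the higher member with diet alone (log2 fold change 0.31, unadjusted p 0.0164). Of 14 tested pericentral markers, 2 were higher and 1 lower (2 and 0 without red 186, 4 and 0 with the clock score). Cyp2c50 and Cyp2c37, both also members of the P450 list above, were the higher members with diet alone. Over all tested genes 6.67% were higher and 6.63% lower with diet alone. The summed periportal counts ranged from 1905577 to 3039932 in control and from 1930330 to 2929728 in red livers.

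In methyl group, one-carbon and NAD metabolism, 29 of 30 listed genes were tested, with 1 higher and 6 lower at an unadjusted p under 0.05, Nnmt alone passing after adjustment. Mat1a, which makes S-adenosylmethionine in liver, had a log2 fold change of -0.26 (edgeR adjusted p 0.194, SE 0.0915), and Tdo2, tryptophan dioxygenase, of -0.29 (edgeR adjusted p 0.218, SE 0.106). A model with the clock score gave 0 higher and 2 lower members, with log2 fold changes of -0.11 for Mat1a and -0.18 for Tdo2. Among 26 tested receptor tyrosine kinases of liver, Ntrk2 passed, Erbb3 and Fgfr4 were higher and Erbb4 lower at an unadjusted p under 0.05. With Ntrk2 these made up 15.4% of the tested members, near the 13.3% of all tested genes. Erbb3, a neuregulin receptor, ranged from 96.5 to 168 CPM with a median of 136 in control livers and from 144 to 192 CPM with a median of 166 in red livers, with 12 of 12 red livers above the control median (log2 fold change 0.26, edgeR adjusted p 0.164, SE 0.0881).

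Stress and immune lists held no gene past the adjusted threshold. Of 24 tested immediate early and glucocorticoid response genes, 8 were lower and 0 higher at an unadjusted p under 0.05, with a median log2 fold change of -0.19. The immediate early factors Fos (log2 fold change -1.56, edgeR adjusted p 0.0946, SE 0.431) and Atf3 (-0.88, edgeR adjusted p 0.0921, SE 0.242) were at low levels, and the list had 4 lower members with the clock score. Fos ranged from 0.348 to 6.33 CPM with a median of 1.27 in control livers and from 0.166 to 1.24 CPM with a median of 0.599 in red livers. Of 31 tested interferon response genes, 6 were higher and 0 lower, with a median of 0.16. The antiviral genes Mx1 (from 0.197 to 0.763 CPM with a median of 0.508 in control livers and from 0.325 to 1.83 CPM with a median of 0.808 in red livers; log2 fold change 0.74, edgeR adjusted p 0.112, SE 0.216) and Rsad2 (log2 fold change 0.67, edgeR adjusted p 0.154, SE 0.217) led that list. Of 25 tested endoplasmic reticulum stress genes, 0 were higher and 2 lower. Of 23 tested acute phase genes, 1 was higher and 0 lower (2 higher without red 186), the fibrinogen chain Fga (log2 fold change 0.24, edgeR adjusted p 0.181, SE 0.0841). With the clock score the acute phase list had 0 higher and 1 lower members. With diet alone these counts were 8% of the stress list and 4.35% of the acute phase list, below the 13.3% of all tested genes.

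**Figure D5:**
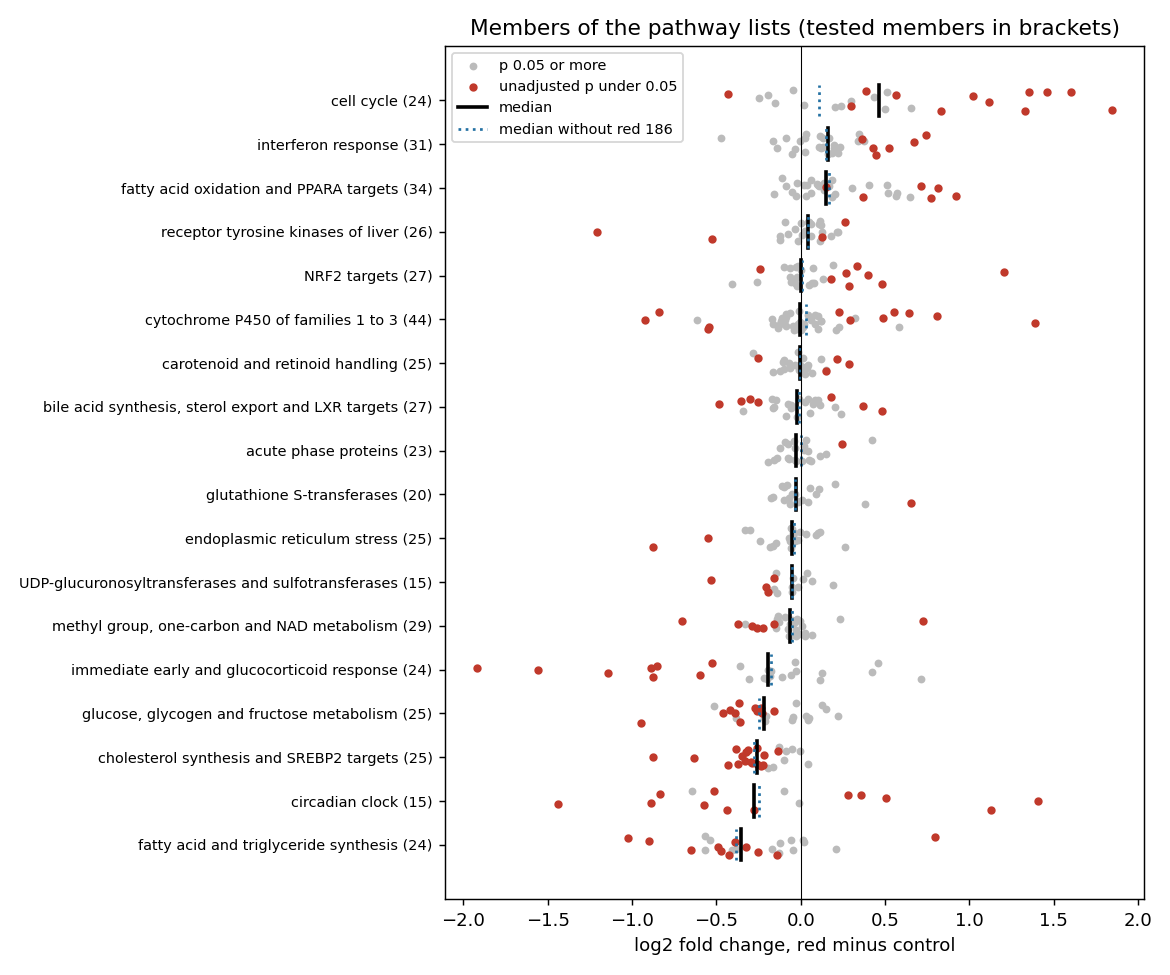
Log2 fold change of red against control (horizontal axis) for each tested member of 18 pathway lists (rows), with red points for an unadjusted p under 0.05, the list median as a black bar and the median without red 186 as a dotted blue bar. Medians run from -0.35 for fatty acid and triglyceride synthesis to 0.47 for cell cycle, and the cell cycle median is 0.11 without red 186.

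Differences in T cell transcripts rested on red 186. Of 12 listed T cell markers, all had counts and 7 were tested, and all 7 were higher at an unadjusted p under 0.05, with a median log2 fold change of 2.64. Without red 186 the count was 0 and the median 0.11 (with the clock score, 0 and 1.65), where 861 genes (6.12%) were higher and 1027 (7.3%) lower at an unadjusted p under 0.05. Trbc2, a chain of the T cell receptor, ranged from 0.303 to 1.2 CPM with a median of 0.545 in control livers and from 0.33 to 57.2 CPM with a median of 0.605 in red livers (log2 fold change 3.23, edgeR adjusted p 0.0591, SE 0.773), and its log2 fold change was 0.12 without that library. The T cell markers below the count filter, among them Cd8a (1475 counts) and Cd8b1 (1052 counts), summed to 3076 counts in red 186 and to at most 24 in control and 32 in the other red libraries. Of 30 listed cell cycle genes 24 were tested, with 11 higher and 1 lower and a median log2 fold change of 0.47. Without red 186 there were 4 higher and 1 lower and a median of 0.11, and with the clock score 0 higher and 2 lower and a median of 0.30. Mki67, a marker of cycling cells, ranged from 0.600 to 2.08 CPM with a median of 1.07 in control livers and from 1.24 to 22.1 CPM with a median of 1.93 in red livers, and 12 of 12 red livers exceeded the control median. Its log2 fold change was 1.61 (edgeR adjusted p 0.075, SE 0.418), without red 186 it was 0.71 (unadjusted p 0.00911, edgeR adjusted p 0.200), and with the clock score it was 1.01 (unadjusted p 0.0556).

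No marker of the other resident cells of liver passed after adjustment. All 12 Kupffer cell markers had a positive log2 fold change with none at an unadjusted p under 0.05 and a median of 0.15. Their summed counts ranged from 2864 to 11452 in control and from 6268 to 13169 in red livers. Control 137 alone set the low end, and the next lowest control library had 5981 counts. Its sinusoidal endothelial markers summed to 2856 counts, where the next lowest control library had 9164. The fold changes were not fitted without control 137. None of 11 tested sinusoidal endothelial markers had an unadjusted p under 0.05, and of 11 tested stellate cell markers 1 was lower, Dcn (log2 fold change -0.19, edgeR adjusted p 0.335, SE 0.0855). The summed counts of cholangiocyte markers ranged from 688 to 1179 in control and from 728 to 2493 in red livers. Red 199 alone set the high end, and the next highest red library, red 186, had 1584 counts. Of 6 tested cholangiocyte markers, 1 was higher at an unadjusted p under 0.05 (16.7%, against 13.3% of all tested genes). All 6 tested B cell markers had a positive log2 fold change, with a median of 0.42 (0.27 without red 186). Blk, a kinase of B cells, was higher at an unadjusted p under 0.05 (log2 fold change 0.40, unadjusted p 0.0484), and its log2 fold change was 0.32 without red 186 (unadjusted p 0.11). The part of cell composition in the differences of the 21 genes was not tested.

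Without red 186, 54 genes passed (0.384%), 26 higher (0.185%) and 28 lower (0.199%), among them all 21 genes. The other 33, 19 higher and 14 lower, had an adjusted p from 0.0512 to 0.118 with all libraries. Of these, chosen after their values were seen, Pxmp4, a peroxisomal membrane protein, had a log2 fold change of 0.37 (edgeR adjusted p 0.0348), and the hypoxia-responsive Ndrg1 of 0.88 (edgeR adjusted p 0.0404). Ugp2, which makes UDP-glucose, had a log2 fold change of -0.38 (edgeR adjusted p 0.0348). Also gained were the sterol synthesis gene Acat2 (log2 fold change -0.33, edgeR adjusted p 0.0348) and the Fdps pseudogene copy Gm5873 (-0.52, edgeR adjusted p 0.0404).

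The levels of the 21 genes on tangerine powder were set beside those on red. Both contrasts with red share the red libraries, so these values stand side by side and are not independent support. The direct difference between the tomato diets passed for 11 of the 21 (0 with the clock score), where 241 of 14068 genes passed (1.71%), and Cyp2c29 alone also passed for tangerine against control, where 2 genes passed (0.0142%). Cyp2c29 averaged 696 ± 116, 1218 ± 217 and 1035 ± 142 CPM on control, red and tangerine diet (SD, n = 12 each). Eps8l2 averaged 23.6 ± 4.49, 36.1 ± 5.85 and 23.4 ± 4.84 CPM (SD, n = 12 each), and its log2 fold change of tangerine against red was -0.63 (edgeR adjusted p 0.00394, SE 0.108). Uox averaged 1784 ± 156, 1391 ± 120.5 and 1778 ± 258 CPM (SD, n = 12 each), with a log2 fold change of tangerine against red of 0.35 (edgeR adjusted p 0.00785, SE 0.0685). Osgin1 averaged 79.4 ± 31.5, 183 ± 77.9 and 131 ± 44.5 CPM (SD, n = 12 each), and its difference between the tomato diets did not pass (log2 fold change -0.49, edgeR adjusted p 0.324, SE 0.237).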

How the data were processed

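Total RNA of liver was made into libraries with a directional kit, per the labels' protocols. The authors deposited counts without normalization, as 1 table of 53715 gene identifiers by 36 libraries. Per the submitters' processing notes, the build was GRCm38.p6 and FastQC, Trimmomatic and edgeR were used. Aligner, counter, annotation release, strand setting and the treatment of shared reads are not given in the sources used here. All columns were matched to samples by the names in the labels.

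Genes were filtered with filterByExpr (a count of 10, a total of 15) and tested with edgeR 4.0.16 (R 4.3.3), TMM scaling and the robust quasi-likelihood F test on all 36 libraries without covariates. Benjamini-Hochberg adjustment ran over the 14068 tested genes. Standard errors are the absolute log2 fold change divided by the square root of F. Log2 CPM for the clock score used a prior count of 2. Replicates are separate mice by title, and p-values measure the spread between them; the smallest chi-square per degree of freedom over 276 pairs of control and red libraries was 13.7, so none was treated as a duplicate. Depth per library is given above, and counts of few reads cover counting error only.

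Named genes were all that passed and fixed reference genes. Added to these were the members with the smallest p, up to 4 of each of 18 pathway lists and 2 of each of 13 marker lists. Others were named outside this rule, some as the sole or defining members of a count. Cyp2b10, Cyp3a11, Gclm, Ass1, Pxmp4, Ndrg1 and Ugp2 were not, and were picked from larger sets. The members, lists and tests were chosen with earlier results of these data known. Positions are those of GENCODE release M21 (GRCm38), with 53620 identifiers matched to a symbol. Promoters came from RefSeq (GRCm38.p6), which matched 82 of 118 named genes. Other settings were DESeq2 1.42.0 size factors and its test, no low-count filter, limma-voom 3.58.1 with sample weights, only control and red libraries, the clock score or mouse number as covariate and leaving out red 186; summing Fdps and its copies was added after seeing the data. Some members of the gene lists are counted but not reported here by name.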

Additional observations from a re-analysis of the deposited data

Results flagged for a closer look

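For 11 of the 21 genes the difference between the tomato diets itself passed at an edgeR adjusted p under 0.05, in a contrast that shares the red libraries. For Ntrk2 the log2 difference of tangerine minus red was 0.94, with means of 58.8, 25.5 and 48.8 CPM on control, red and tangerine diet. For Fam47e it was 0.57 (21.7, 14.1 and 21 CPM). For Gm3571 it was 0.45, for Uox 0.35, for Arg1 0.31, for Borcs7 0.29, for Erg28 0.29 and for Tmem50a 0.23, all lower on red than on tangerine diet. The genes higher on red than on tangerine diet were Eps8l2 at -0.63, Cyp4f17 at -0.56 (7.39, 10.4 and 7.09 CPM) and Eml3 at -0.31.

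In red 186, markers that fell below the count filter were far above the level of the control libraries. T cell markers summed to 3076 counts, against at most 24 in control, and adipocyte markers to 345 counts, against at most 6 in control. The adipocyte counts included Cidea at 122, Plin1 at 110, Adipoq at 52 and Lep at 42 counts, where Lep had 0 counts in every other library.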

How the results depend on the processing

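The 21 genes kept their direction under every other setting that gave a value. DESeq2 size factors (21 genes), the mouse number (22) and Fdps summed with its copies (21) kept the count close. The DESeq2 test passed 164 genes (81 higher, 83 lower; 20 of the 21, with no adjusted p for Cyp2c53-ps), limma-voom with sample weights 1504 (546 higher, 958 lower; all 21), the clock score 4 (2 and 2) and leaving out red 186 54 (26 and 28). With only control and red libraries 30 passed, 14 of them higher, without Borcs7. No low-count filter gave 17. An unadjusted p under 0.05 was reached by 2955 genes without the filter and by 3713 with limma-voom. The share of higher genes was 33.3% with diet alone and 49.4% with the DESeq2 test. Statements above that no member of a list passed hold for the edgeR fit. Of the other genes named by rule, 17 passed with the DESeq2 test, 44 with limma-voom and 1 without red 186.

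Of the 21 genes, 11 passed for tangerine against red with diet alone, 17 with limma-voom, 0 with the clock score and 5 with the mouse number. Slopes on the clock score passed for 215 genes in control and red libraries alone. The sign turned for Bco1 (0.045 with limma-voom, 0.0074 without red 186), Fabp4 (-0.14 with the DESeq2 test, -0.15 without red 186), Car3 (-0.0057 with limma-voom, -0.049 with the clock score) and Satb1 (-0.042 without red 186). With the clock score it also turned for Bco2 (-0.047), Nqo1 (0.064), Cyp7a1 (0.15), Stra6l (-0.023) and Gys2 (0.0021), none of which passed in either. The cause was not tested.

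No paired analysis was possible because the diets share no mouse numbers. Depth limits low transcripts such as Cyp2c53-ps, Fos and the T cell markers outside red 186.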
